A study of Mus musculus with 6 samples.

Results

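The proteasome subunit genes are the protein-coding mouse genes named Psma, Psmb, Psmc, Psmd or Psme followed by a number. Of 43 such symbols in the gene table, 42 have a row among the 17741 rows of the expression table, and Psmb11 is not analysed here. Of the 42 genes, 39 averaged at least 1 FPKM over the 6 libraries and were tested. The series was made to look at neural tube defects linked to KLF12, a zinc-finger transcription factor, in excess. It compared C57BL/6 fetuses at 9.0 days post coitum (dpc), 3 libraries labelled WT and 3 labelled KLF12 overexpression, all made from Trizol-extracted total RNA. How KLF12 was overexpressed and whether a library is 1 fetus or a pool are not given in the labels, so p-values measure the spread between these libraries, which may be partly technical.

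The proteasome degrades proteins that carry ubiquitin chains. Its core particle is a barrel of outer rings of alpha subunits (Psma genes) and inner rings of beta subunits (Psmb genes), some of which cut peptide bonds. The regulatory particle caps the barrel. Its ring of ATPases (Psmc genes) unfolds substrates, and its non-ATPase subunits (Psmd genes) bind ubiquitin chains and remove them. Activators (Psme genes) can cap the core instead and open it without ubiquitin. Dividing embryonic cells use it to destroy cyclins and to turn over beta-catenin and other signalling proteins.

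Klf12 was measured at 1.99, 2.11 and 1.32 FPKM in WT libraries 1 to 3 and at 16.4, 15.2 and 23.9 FPKM in KLF12 libraries 1 to 3. The groups did not overlap (exact permutation p = 0.1, two-sided, the smallest that 3 against 3 allows), and the labels held for this gene. KLF12 library 3 stood apart: over all tested genes its log2 values correlated at 0.951 to 0.957 with the other KLF12 libraries, which correlated with each other at 0.972. Medians of the group differences are given with and without it. FPKM summed to between 528236 (KLF12 library 3) and 635381 per library.

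In 4 of 39 tested genes every KLF12 library lay below every WT library, a share near the 8.98% of all 12141 genes tested. The 250 bases before their starts are shown as examples of the members' promoters. They come from RefSeq on GRCm38.p6, not the build named by the submitters, and run 5′ to 3′. Capitals mark the GC box GGGCGG and the antioxidant response element core TGACNNNGC, the letters read by NFE2L1 and NFE2L2, on either strand.
Psmc5 (chr11:106255935-106256184, plus strand): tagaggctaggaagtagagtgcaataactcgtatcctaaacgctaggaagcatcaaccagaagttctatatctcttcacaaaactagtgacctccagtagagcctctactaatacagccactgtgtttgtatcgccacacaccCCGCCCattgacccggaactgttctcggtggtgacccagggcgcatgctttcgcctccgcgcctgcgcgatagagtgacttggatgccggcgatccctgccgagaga
Psmc6 (chr14:45329574-45329823, plus strand): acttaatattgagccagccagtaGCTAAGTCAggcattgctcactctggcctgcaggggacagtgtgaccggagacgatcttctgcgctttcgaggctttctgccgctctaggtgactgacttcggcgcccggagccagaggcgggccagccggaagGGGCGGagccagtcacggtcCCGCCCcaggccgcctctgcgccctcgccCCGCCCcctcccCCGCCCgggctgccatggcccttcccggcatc
Psmd13 (chr7:140882144-140882393, plus strand): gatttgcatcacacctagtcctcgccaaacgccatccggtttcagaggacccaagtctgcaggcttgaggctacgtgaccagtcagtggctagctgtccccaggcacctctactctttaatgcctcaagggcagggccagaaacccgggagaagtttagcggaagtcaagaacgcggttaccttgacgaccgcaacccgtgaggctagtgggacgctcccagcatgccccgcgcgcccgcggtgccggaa
Psmd2 (chr16:20651402-20651651, plus strand): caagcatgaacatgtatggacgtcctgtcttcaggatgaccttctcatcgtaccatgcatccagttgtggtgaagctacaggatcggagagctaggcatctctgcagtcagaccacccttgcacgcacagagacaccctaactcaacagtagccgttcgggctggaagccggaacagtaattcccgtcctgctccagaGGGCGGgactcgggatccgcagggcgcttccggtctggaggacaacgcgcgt
Psmc6 held 4 GC boxes and 1 antioxidant response element core, Psmc5 and Psmd2 held 1 GC box each, and Psmd13 held neither. Over the 38 windows of the 35 members with an entry, 22 windows (57.9%) held a GC box, against 32.7% of all 32851 windows. An antioxidant response element core was in 5 windows (13.2%), against 10.2% of all. The NF-Y box CCAAT was in 34.2% of the members' windows and 33.8% of all, and the CACCC box, letters that KLF proteins can bind, in 42.1% and 52% (CACCC overlaps the GC box by 1 base in Psmc5). A match is a description of letters and not a bound site.

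By median level the core genes were the highest members, followed by the ATPases. The 7 tested alpha genes averaged 193 to 412 FPKM in WT, with a median of 213, and Psma7 was the highest. Leaving Psmb6 aside, the 13 constitutive core genes had a highest-to-lowest ratio of 2.18, 2.46 and 2.67 in WT libraries 1 to 3. In KLF12 libraries 1 to 3 that ratio was 2.36, 2.27 and 2.42, within the range of WT. The 6 ATPase genes ranged from 131 FPKM (Psmc2) to 226 FPKM (Psmc3) in WT, and their median was 0.884 to 0.935 of the core median in WT and 0.804 to 0.978 in the KLF12 libraries. The ratio of 0.978 was that of KLF12 library 3. FPKM is per length, but transcript length still went with the values of that library (below). Levels of parts that differ in length can thus be compared only roughly.

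The Psmd genes spread more widely, from 22.3 FPKM (Psmd9) to 224 FPKM (Psmd2) in WT. The lowest 3 of the 14 were Psmd9, Psmd10 and Psmd5, at 22.3, 23.2 and 47.8 FPKM, which encode chaperones that assemble the ATPase ring and leave before the particle is complete. The lowest after them was Psmd11, a lid scaffold subunit, at 75.6 FPKM. Psmd14, the enzyme that strips ubiquitin from substrates, averaged 96.8 ± 6.35 FPKM in WT, and Psmd4, a ubiquitin receptor, 149 ± 9.22 (SD, n = 3).

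**Figure D1:**
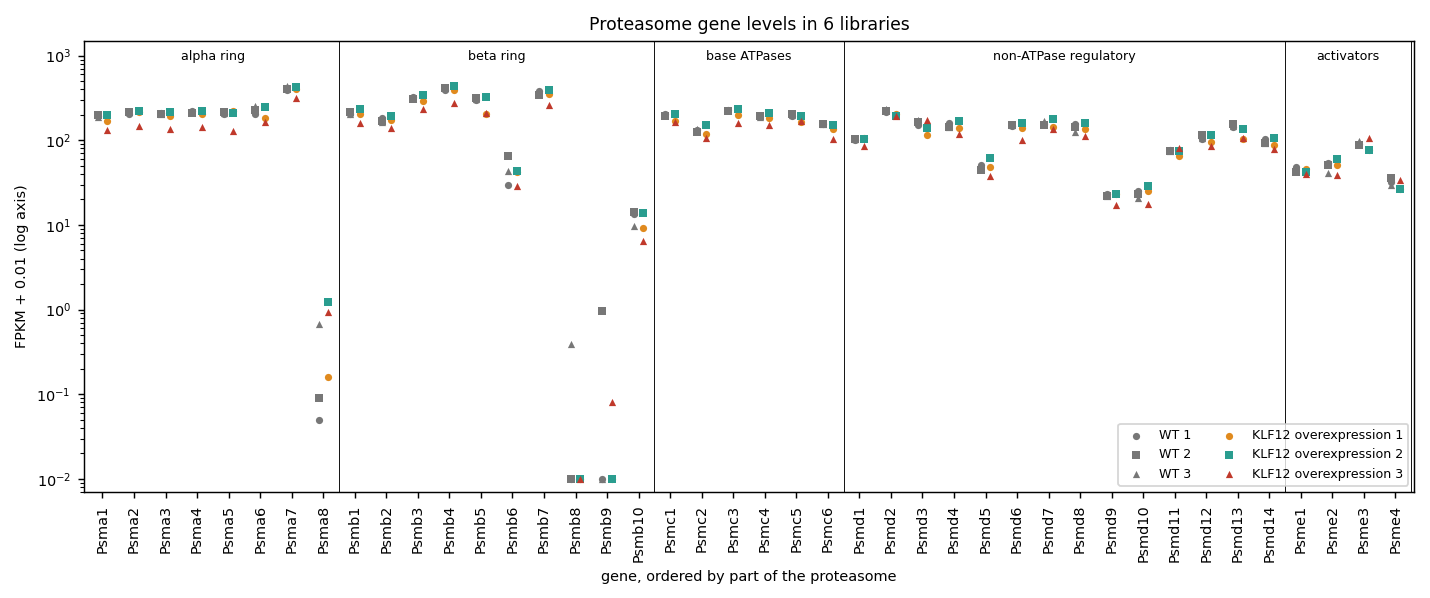
FPKM, with 0.01 added for the log axis, of the 42 proteasome genes in each of the 6 libraries, ordered by part; grey symbols are WT and coloured symbols KLF12 overexpression. Most core and ATPase genes lie between 103 and 437 FPKM, Psmb6, Psmb10, Psmd5, Psmd9, Psmd10 and the activators lie lower, and Psma8, Psmb8 and Psmb9 lie near or below 1 FPKM.

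The cutting subunits were nearly all of the constitutive kind. Psmb5, the chymotrypsin-like subunit, was at 302, 319 and 310 FPKM in WT libraries 1 to 3 and at 207, 324 and 208 in KLF12 libraries 1 to 3. KLF12 libraries 1 and 3 lay below all WT libraries and library 2 lay above them. Psmb7, the trypsin-like subunit, was at 378, 346 and 365 FPKM in WT and at 348, 394 and 258 in the KLF12 group, where library 3 was low and library 2 high. Psmb6, the caspase-like subunit, was at 29.4, 65.3 and 43.7 FPKM in WT and at 42.7, 43.2 and 28.5 in the KLF12 group. Psmb6 lay several-fold below its partners in every library and varied more within WT than Psmb5 or Psmb7. The gene table names pseudogenes of Psmb6, Psmb5, Psmb7 and Psma5, which are not analysed here, and whether reads of these genes were shared with the copies was not tested.

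The immunoproteasome subunits, which replace the cutting subunits under interferon and in blood cells, were low. Psmb8 was listed at 0.38 FPKM in WT library 3 and at 0 in the other 5 libraries. Psmb9 was listed at 0.96 FPKM in WT library 2, 0.07 in KLF12 library 3 and 0 elsewhere. Psmb10 was at 13.4, 14.3 and 9.73 FPKM in WT and at 9.23, 13.9 and 6.45 in the KLF12 group, and the groups overlapped. Together the 3 made up 1.39% to 2.05% of the FPKM of the 6 cutting subunits in WT and 1.3% to 1.79% in the KLF12 libraries. Psma8, an alpha subunit of the testis, was at 0.04, 0.08 and 0.67 FPKM in WT and 0.15, 1.22 and 0.92 in the KLF12 group. Leukocyte markers were also low, with 3 of 5 analysed and a summed level of 0.41 to 2.04 FPKM in WT and 0.48 to 1.24 in the KLF12 group. Germ cell markers summed to 0.98 to 1.74 FPKM in WT and 2.57 to 4.6 in the KLF12 group. Their part in the level of Psma8 was not tested.

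No proteasome gene passed the test between the groups. In limma, 0 of 39 genes had an adjusted p under 0.05, against 0.733% of the 12141 genes tested. By direction, 0 were higher, against 0.0988% of all genes (12 genes), and 0 were lower, against 0.634% (77 genes). At an unadjusted p under 0.05 there was 1 gene, Psmd13, against 10.9% of all genes. The smallest adjusted p was 0.336. The 95% intervals of the 39 log2 differences lay between -0.94 and 0.45, on the log2(FPKM + 1) scale, so a change of 1 in either direction was outside each of them. With array weights, which count libraries by their fit, 3 members were called, Psmb5, Psmd3 and Psmd13, against 13.1% of all genes under that setting.

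The differences were small and mostly negative. Of the 39, 36 were below 0, against 52.7% of all genes, and their median was -0.14 on the log2 scale, against -0.02 over all genes. By part, the median was -0.22 for 7 alpha genes, -0.15 for 8 beta genes, -0.17 for 6 ATPase genes, -0.08 for 14 Psmd genes and -0.10 for 4 activator genes. Without KLF12 library 3 these medians were -0.02, 0.02, -0.07, 0.01 and -0.15. The sign count depended on 1 library and on the scaling: without KLF12 library 3, 21 were negative and 18 positive with a median of -0.02, and with quantile normalization 28 were negative with a median of -0.06. Without KLF12 library 2 all 39 were negative with a median of -0.22.

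**Figure D2:**
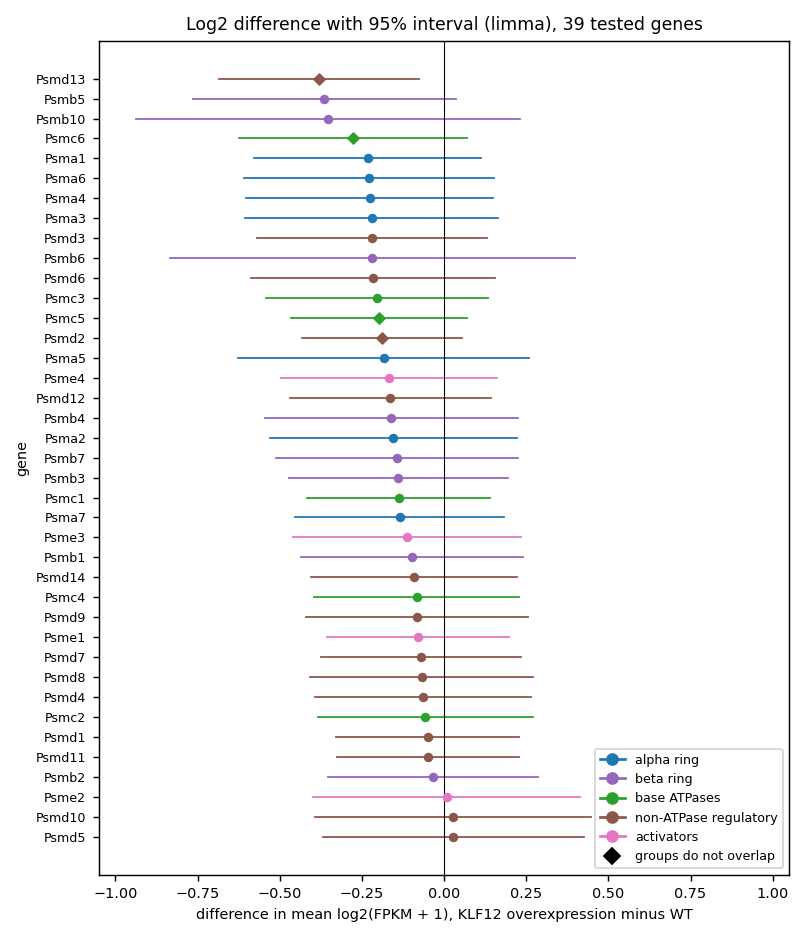
Difference in mean log2(FPKM + 1), KLF12 overexpression minus WT, for the 39 tested proteasome genes with 95% limma intervals, coloured by part; diamonds mark genes whose groups do not overlap. The intervals lie between -0.94 and 0.45, and only that of Psmd13 leaves out 0.

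Groups separated for 4 of 39 genes, each lower in the KLF12 libraries, against 8.98% of all genes, and for 0 genes in the higher direction, against 7.9%. The first of these shares is near its background. Psmd13, a lid subunit, was at 142, 156 and 149 FPKM in WT libraries 1 to 3 and at 102, 135 and 107 in KLF12 libraries 1 to 3. KLF12 libraries 1 and 3 were well below WT and library 2 just below, and the log2 difference was -0.38 ± 0.14 (SE; limma adjusted p = 0.336). Psmc6, an ATPase, was at 156, 156 and 158 FPKM in WT and at 137, 153 and 103 in the KLF12 group, a log2 difference of -0.28 ± 0.15 (SE; limma adjusted p = 0.581). Library 3 was the lowest, and without it the difference of Psmc6 was -0.11. Psmc5, another ATPase, was at 195, 204 and 201 FPKM in WT and at 162, 195 and 167 in the KLF12 group, where library 2 almost met the lowest WT library. Its log2 difference was -0.20 ± 0.12 (SE; limma adjusted p = 0.613). Psmd2, a large scaffold subunit of the base, was at 216, 223 and 232 FPKM in WT and at 204, 193 and 191 in the KLF12 group. It lies outside the rule for named genes and was chosen after its values were seen. Its KLF12 libraries were close together, with a log2 difference of -0.19 ± 0.11 (SE; limma adjusted p = 0.596).

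The KLF12 libraries did not move together over the members. In KLF12 library 1, 25 of 39 genes lay below all WT libraries, against 39.1% of all genes, and 3 lay above, against 27.3%. In KLF12 library 2 it was the other way round: 22 lay above all WT libraries, against 31%, and 7 below, against 35%. In KLF12 library 3, 35 lay below, against 31.8%, and 2 above, against 38.3%. The median deviation from the WT mean was -0.10, 0.06 and -0.35 on the log2 scale in KLF12 libraries 1 to 3, and over all genes it was -0.05, -0.01 and 0.04. In the 3 WT libraries the members' medians lay within 0.01 of 0. These WT values make up the mean they are set against, which draws them toward 0, so they are no independent reference. Fewer cells of a type and less RNA per cell cannot be told apart in such whole-fetus libraries.

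In KLF12 library 3 the core was lowest and the regulatory particle less so. Its median deviation was -0.54 for alpha, -0.52 for beta, -0.30 for ATPase, -0.31 for Psmd and -0.07 for activator genes. The parts also differ in transcript length, which went with the values of this library (below). The share of length in this order was not tested. Each alpha gene was below WT there, from -0.39 (Psma7) to -0.68 (Psma5). Psma5 was at 203, 214 and 208 FPKM in WT and at 224, 212 and 130 in KLF12 libraries 1 to 3, so only library 3 was low. The ATPases ran from -0.26 (Psmc1) to -0.61 (Psmc6). Among the members tested, 4 were higher than their WT mean in library 3: Psmd3 by 0.07, Psmd11 by 0.09, Psme3 by 0.21 and Psme4 by 0.04. Psmd3, a lid scaffold subunit, was at 152, 166 and 174 FPKM in WT and at 115, 140 and 172 in the KLF12 group. There libraries 1 and 2 lay below WT and library 3 lay within it.

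**Figure D3:**
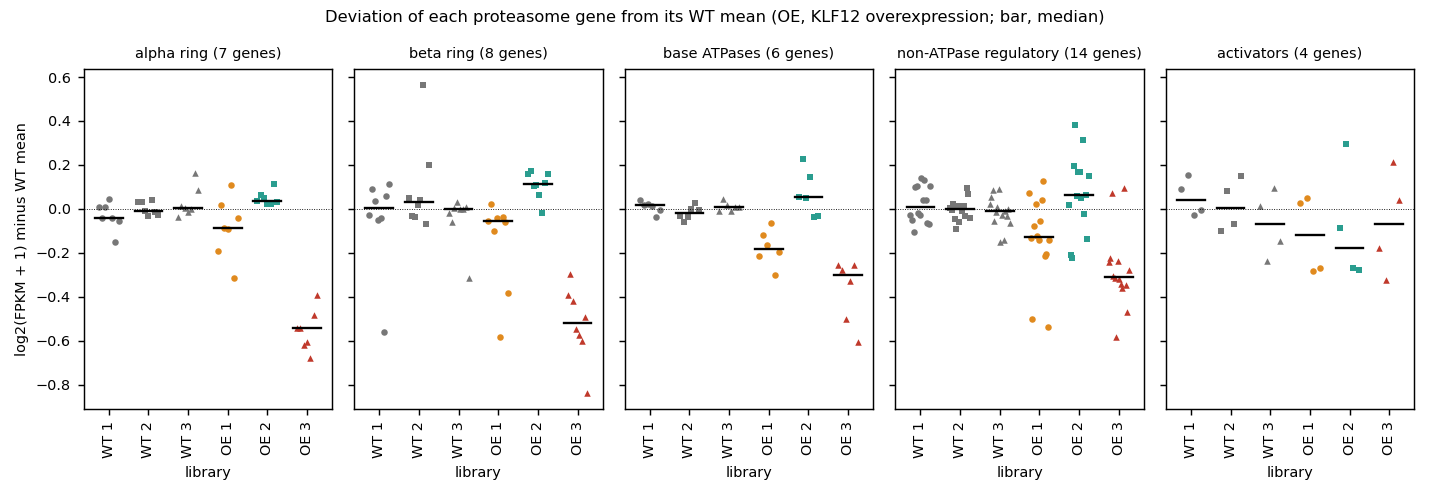
Log2(FPKM + 1) minus the gene's WT mean in each library, 1 panel per part of the proteasome, 1 point per tested gene and a bar at the median. In KLF12 library 3 the medians are -0.54 and -0.52 in the alpha and beta panels and -0.07 in the activator panel, while KLF12 library 2 lies slightly above 0 except in the activators. Deviations are not adjusted for transcript length.

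KLF12 library 1 gave another order. All 6 ATPase genes lay below WT there, with a median deviation of -0.18 and a range of -0.30 (Psmc5) to -0.06 (Psmc4). The lowest members in library 1 were Psmb5, Psmd13 and Psmd3, at -0.58, -0.54 and -0.50, while the alpha genes had a median of -0.09. In KLF12 library 2 the beta genes had the highest median, 0.11, and the highest single members were Psmd5 and Psmd10, assembly chaperones, at 0.38 and 0.31.

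The activators did not share 1 profile over the KLF12 libraries. Psme1 and Psme2, which form the interferon-inducible cap, were at 48.1, 42.1 and 45.6 FPKM and at 54.5, 51.8 and 41.3 FPKM in WT. In the KLF12 libraries they were at 46.1, 42.5 and 39.9 FPKM and at 50.7, 60.3 and 38.8 FPKM, and both pairs of groups overlapped. Psme2 has a close copy, Psme2b, and a split of reads between them was not tested. Psme3, a nuclear cap, was at 91.0, 88.2 and 99.2 FPKM in WT and at 76.0, 76.7 and 108 in the KLF12 group. Psme4, which acts in DNA repair and in histone turnover, was at 32.5, 36.3 and 29.4 FPKM in WT and at 26.9, 26.7 and 33.6 in the KLF12 group. For Psme3 and Psme4, KLF12 libraries 1 and 2 were below WT and library 3 was not. The log2 differences of the 4 activators were -0.08, 0.01, -0.11 and -0.17 (limma adjusted p of 0.890, 0.997, 0.874 and 0.760). With each library left out in turn they ran from -0.13 to -0.03 for Psme1, -0.14 to 0.17 for Psme2, -0.28 to -0.03 for Psme3 and -0.27 to -0.09 for Psme4. The most negative values of Psme3 and Psme4 were those without KLF12 library 3.

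Transcript length moved with the deviation in KLF12 library 3. The members are short, with a median length of 1512 bases, against 2887 bases over 11674 tested genes with a length. Median lengths were 1201 for alpha, 1029.5 for beta, 1613.5 for ATPase, 1946.5 for Psmd and 1888 for activator genes. Across the 39 members, Spearman's rho between length and deviation was -0.17, -0.30 and 0.40 in KLF12 libraries 1 to 3, and across all genes it was 0.04, -0.24 and 0.44. These are descriptions across genes that share a library. With each library's length trend removed, the members' median deviation was -0.02, 0.03 and -0.26 in KLF12 libraries 1 to 3, with 34 of 39 negative in library 3. The group median was then -0.09.

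**Figure D4:**
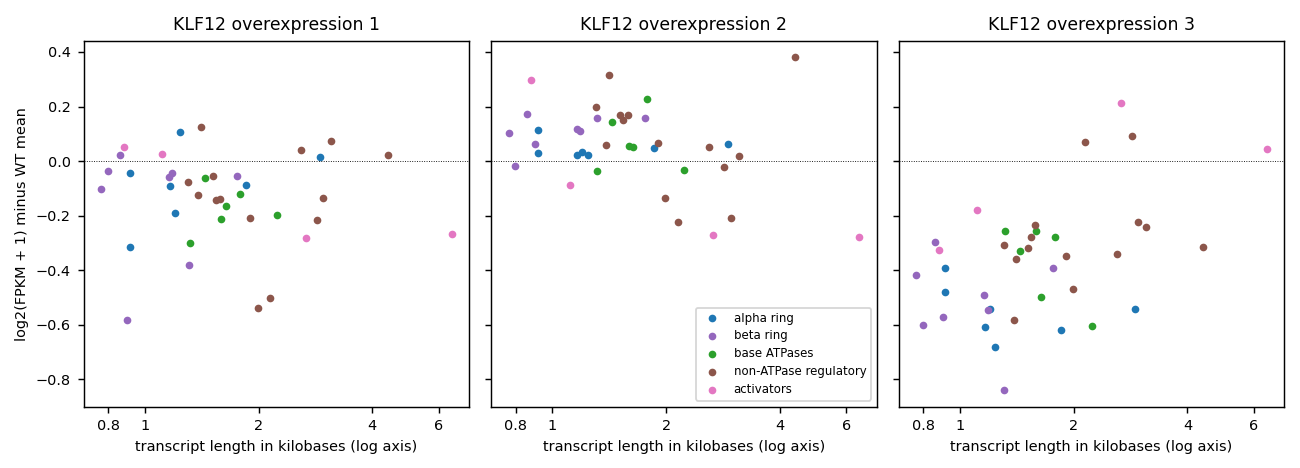
Log2(FPKM + 1) minus the WT mean against transcript length in kilobases (log axis) for the 39 tested members, 1 panel per KLF12 library, coloured by part. In library 3 most of the lowest points are alpha and beta genes, and Psmd3, Psmd11, Psme3 and Psme4 lie above 0.

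The low values in library 3 were found on each scale tried, in differing size. The members' median deviation there was -0.16 as values rescaled to a common sum (TPM), with the median of all genes at 0.23, an upward shift that this rescaling gives the library. It was -0.38 with median-of-ratios factors and -0.18 with quantile normalization, where the medians of all genes were 0.01. Between 34 and 35 of 39 members were negative in library 3 on these scales. Sums of some tissue markers also set library 3 apart. Neural tube markers (4 of 4 analysed) summed to 113 FPKM there, 51.0 and 58.7 in KLF12 libraries 1 and 2, and 43.1 to 50.6 in WT. Heart markers (4 of 4) summed to 353 FPKM there, 511 and 676 in the other KLF12 libraries, and 508 to 553 in WT. Myl7 and Tnnt2 carried the low heart sum, at 229 and 67.9 FPKM in library 3. Myh6 and Nppa did not set library 3 apart. In KLF12 libraries 1 to 3 Myh6 was at 25.1, 38.6 and 38.8 FPKM and Nppa at 22.2, 16.1 and 17.2. Paraxial mesoderm markers summed to 35.1 FPKM in KLF12 library 1, 68.7 and 73.0 in libraries 2 and 3, and 78.7 to 80.4 in WT. Endothelial markers summed to 43.5 to 45.3 FPKM in WT and 43.6 to 60.2 in the KLF12 group. The part of these tissues in the proteasome values was not tested.

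Blood and yolk sac markers varied within both groups, and the blood sums were lower in every KLF12 library than in any WT library. Primitive erythroid markers summed to 4104 to 9349 FPKM in WT and 1068 to 3319 in the KLF12 group, without overlap. Yolk sac endoderm markers summed to 37.5 to 265 FPKM in WT and 194 to 285 in the KLF12 group. Trophoblast markers (3 of 4 analysed) summed to 2.81 to 6.66 and 2.78 to 6.2 FPKM, and decidua markers (3 of 4) to 0.58 to 15.0 and 0.45 to 12.3 FPKM. Of 30 marker genes tested, 0 were called by limma and 11 had an unadjusted p under 0.05, against 10.9% of all genes. The part of these cells in the proteasome values was not tested either.

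Members followed each other across libraries less closely when KLF12 library 3 was left out. Over the 741 pairs of tested members, the median Pearson correlation of log2 values was 0.74 across 6 libraries, with quartiles of 0.41 and 0.87. Across the 5 libraries without KLF12 library 3 it was 0.38, with quartiles of -0.09 and 0.71. These pairs share the same libraries and their scaling. No other library was left out here, and pairs of other genes were not computed.

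Genes that build and accompany the proteasome were not called either. Of 14 assembly and associated factors tested, 0 passed in either direction by limma, 0 had an unadjusted p under 0.05, and the median log2 difference was -0.06. Over all genes, 0.733% passed and 10.9% had an unadjusted p under 0.05. Their median deviation was -0.10, 0.05 and -0.19 in KLF12 libraries 1 to 3, in the same order as for the subunits, and without library 3 the median difference was -0.01. Psmg3, a chaperone of alpha ring assembly, was at 42.6, 42.1 and 49.0 FPKM in WT and at 30.1, 44.6 and 25.9 in the KLF12 group, where libraries 1 and 3 were low (log2 difference -0.43 ± 0.19, SE; limma adjusted p = 0.462). The difference of Psmg3 was -0.27 without KLF12 library 3 and -0.65 without KLF12 library 2. Ecpas, a scaffold that associates with the particle under stress, was at 22.3, 22.7 and 20.8 FPKM in WT and at 26.7, 27.1 and 25.1 in the KLF12 group. Its KLF12 libraries lay above WT (log2 difference 0.25 ± 0.12, SE; limma adjusted p = 0.514).

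Regulators of proteasome gene transcription gave 0 of 9 called by limma (0.733% of all genes) and 1 at an unadjusted p under 0.05 (10.9%). Their median was 0.06, which was -0.10 without KLF12 library 3. NFE2L1 drives new subunit transcription when the proteasome is inhibited, and NFE2L2 acts under oxidative stress. Nfe2l2 was at 14.3, 13.9 and 14.3 FPKM in WT and at 12.02, 14.5 and 11 in the KLF12 group, and the groups overlapped (adjusted p = 0.754 by limma). Bach1, a repressor at the same elements, was at 11.4, 7.84 and 9.10 FPKM in WT and at 13.5, 11.7 and 12.7 in the KLF12 group, above WT in each library (log2 difference 0.40 ± 0.17, SE; limma adjusted p = 0.442). Nfe2l1, chosen after its values were seen, was at 31.3, 28.0 and 27.3 FPKM in WT and at 29.4, 18.9 and 48.8 in KLF12 libraries 1 to 3 (limma adjusted p = 0.971). It was highest in library 3, where the subunits were lowest, and lowest in library 2, where they were highest. At 4071.5 bases Nfe2l1 is longer than the members' median of 1512, and over all genes longer transcripts ran higher in library 3. The part of length in this contrast was not tested. Other antioxidant response targets gave 0 of 8 called and 0 at an unadjusted p under 0.05, with a median of -0.09 (-0.07 without KLF12 library 3). Among them Txnrd1, a thioredoxin reductase, was at 92.7, 110 and 102 FPKM in WT and at 55.8, 75.03 and 103 in the KLF12 group (adjusted p = 0.506). Hmox1, which breaks down heme, was at 14.9, 14.5 and 11.1 FPKM in WT and at 21.6, 22.1 and 12.6 in the KLF12 group (adjusted p = 0.573, both by limma).

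Genes that supply ubiquitin and deliver substrates gave 0 of 14 called by limma and 1 at an unadjusted p under 0.05. The shares over all genes were 0.733% and 10.9%, and the list median was -0.09 (-0.10 without KLF12 library 3). Uba1, the main ubiquitin-activating enzyme, was at 171, 192 and 194 FPKM in WT and at 162, 145 and 160 in the KLF12 group, without overlap (log2 difference -0.25 ± 0.12, SE; limma adjusted p = 0.470). Its level in library 3 was within the range of the other KLF12 libraries.

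Of 15 listed MHC class I and interferon response genes, which work downstream of the immunoproteasome, 10 were tested. Of these, 0 were called by limma and 2 had an unadjusted p under 0.05, against 0.733% and 10.9% of all genes. Their median was -0.00 (0.05 without KLF12 library 3). H2-K1, an antigen-presenting chain, was at 7.97, 4.92 and 5.99 FPKM in WT and at 7.91, 12.97 and 15.5 in the KLF12 group, where library 1 overlapped WT. Its log2 difference was 0.82 ± 0.26 (SE; limma adjusted p = 0.261). Ifngr2, an interferon receptor chain, was at 6.33, 8.32 and 7.10 FPKM in WT and at 5.69, 4.67 and 4.86 in the KLF12 group (log2 difference -0.44 ± 0.18, SE; limma adjusted p = 0.420).

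The COP9 signalosome, whose subunits are related to the proteasome lid, and the chaperonin TRiC, which folds actin and tubulin, were also low in library 3. Their median deviations were 0.07, 0.08 and -0.40 for 10 signalosome genes and 0.14, 0.19 and -0.36 for 8 TRiC genes in KLF12 libraries 1 to 3. By these medians library 1 was above the WT mean for both complexes, while the proteasome median was below it, a difference that was not tested. The signalosome genes were split in library 1. There Cops6, Gps1 and Cops8 lay above every WT library, and Cops3, Cops5 and Cops7b lay below every WT library. Both lists gave 0 called by limma and 0 at an unadjusted p under 0.05, against 0.733% and 10.9% of all genes. Their medians were -0.07 and -0.00, and 0.08 and 0.16 without KLF12 library 3. Cops5, the enzyme of the signalosome, was at 98.4, 102 and 90.7 FPKM in WT and at 84.5, 86.6 and 67.6 in the KLF12 group, without overlap (limma adjusted p = 0.471). Cops9, its smallest subunit, was at 124, 163 and 145 FPKM in WT and at 155, 127 and 76.8 in the KLF12 group (adjusted p = 0.710). Cct2 and Cct3, TRiC subunits, averaged 365 ± 5.62 and 461 ± 13.7 FPKM in WT and 390 ± 61.2 and 447 ± 76.2 in the KLF12 group (SD, n = 3; limma adjusted p of 0.905 and 0.939).

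**Figure D5:**
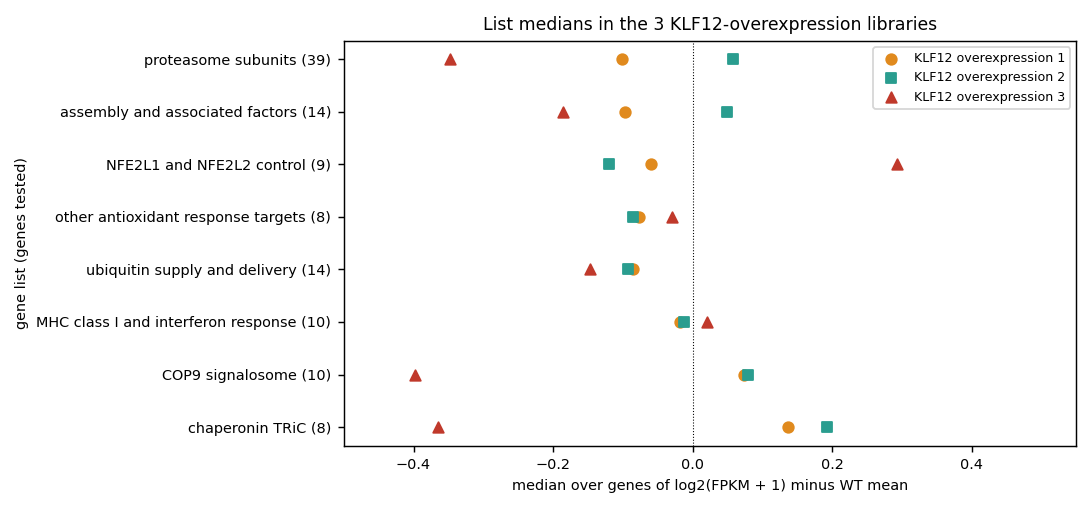
Median over the tested genes of each list of log2(FPKM + 1) minus the WT mean, in KLF12 libraries 1 to 3, with the number of genes in brackets. Proteasome, signalosome and TRiC medians lie at -0.35, -0.40 and -0.36 in library 3, while the NFE2L1 and NFE2L2 list lies at 0.29. The values are not adjusted for transcript length, which went with the deviation in library 3.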

How the data were processed

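RNA-seq of whole C57BL/6 mouse fetuses at 9.0 days post coitum was used, 3 WT and 3 KLF12-overexpression libraries. The authors deposited 1 table of FPKM (fragments scaled to transcript length and to library depth), given to 2 decimals. CASAVA, HISAT2 2.0.4, RSEM 1.2.8 and mm9 are named, without roles, per the submitters' processing notes. The table has 17741 rows, and 16874 of its NCBI gene numbers matched a symbol in the GRCm38.p6 gene table. With no counts in the table, a count test could not be used. Low values times transcript length repeated only weakly at any step. The strongest steps correspond to about 15000000 to 17100000 fragments per library, a rough estimate. Fragment numbers could not be read off gene by gene.

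Values were compared as log2(FPKM + 1), so differences of low genes are understated. The fit used limma 3.58.1 (R 4.3.3) with an intensity trend, on the 12141 rows averaging at least 1 FPKM, two-sided, with Benjamini-Hochberg adjustment over those rows and a threshold of 0.05. It was tested on simulated data. Transcript lengths are medians over GENCODE M21 transcripts with a RefSeq record. Alternatives covered pseudocount, filter, scaling, variance model, replicate block, length trend, threshold and each library left out. Removal of the length trend together with KLF12 library 3 was chosen after seeing the data.

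The members and gene lists were chosen with earlier results of these data known. By rule, the text gives per-library values for Klf12, called members, the largest of the non-overlapping differences, catalytic, immunoproteasome and activator genes, and members below the filter. Psma5, Psmd2 to Psmd5, Psmd9 to Psmd11, Psmd14 and Nfe2l1 fall outside this rule and were chosen after their values were seen. Of each pathway list it names up to 4 called genes or else the 2 with the smallest unadjusted p. A gene of the ubiquitin list that this rule picks is not reported here.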

Additional observations from a re-analysis of the deposited data

How the results depend on the processing

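Klf12 kept its direction and call in each alternative, with log2 differences of 2.59 to 2.91 when each replicate was left out. The number of genes called over all genes was 89, and 14 to 319 with each replicate left out. It was 29 without a filter, 55 as TPM, 164 with the length trend removed, 173 at an adjusted p under 0.1, 1585 with array weights, and 431 with the length trend removed and without KLF12 library 3, chosen after seeing the data. The number of proteasome genes called was 0 in each setting except array weights, where it was 3. The members' median log2 difference was -0.22 to -0.02 with each replicate left out. The replicate numbers are not known to pair the libraries, whose same-numbered deviations correlated by 0.03, -0.11 and 0.04; with the replicate block 64 genes and 0 proteasome genes were called. With each replicate left out, signs turned for Psmb6 (-0.50 to 0.0641), Psmb7 (-0.27 to 0.0299), Psme2 (-0.14 to 0.17), Cct2 (-0.0014 to 0.22) and Cct3 (-0.15 to 0.0872). Psme1 turned to 0.0142 with array weights and 0.0052 with the length trend removed. Cct3 turned to 0.0024 with quantile normalization and 0.0424 with array weights. With the length trend removed and without KLF12 library 3, Psmb7 was at 0.0377 and Cct3 at 0.1181. None of these values was called, and the cause was not tested. Array weights also called Bach1, Hmox1, Psmg3 and Txnrd1 among the named genes. Hmox1 was also called with the length trend removed and without KLF12 library 3 (log2 difference 0.6778, limma adjusted p = 0.0497). As no counts are given, the error of single FPKM values from depth is unknown.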
